A study of Mus musculus with 12 samples.

Results

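Recruited macrophages of the liver, sorted as CD11b-high, were compared between a population with high Ly6C (Ly6CHi-RM) and one with low Ly6C (Ly6CLo-RM), both from C57BL/6J mice on a NASH diet, which models nonalcoholic steatohepatitis. The members were the ATAC-seq peaks of either list whose centre lay over 1000 bp from every peak centre of the other, here named list-specific. There were 11176 such peaks of 61492 in the Ly6CHi-RM list, a background share of 18.2% (95% Wilson interval 17.9% to 18.5%), and 5103 of 54621 in the Ly6CLo-RM list, 9.34% (9.10% to 9.59%). Together these were 16279 of the 116113 peaks of both lists and of the 334073 peaks of the 6 lists of the series.

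ATAC-seq marks open chromatin by the insertion of adapters by a transposase. The series held 12 libraries, 2 in each of 6 groups, and the authors deposited 1 peak list per group. The other groups were Ly6C-high blood monocytes, F4/80-high Kupffer cells without Tim4 (KN-RM) and with Tim4 (KC-N) from NASH-diet mice, and F4/80-high Kupffer cells with Tim4 from control-diet mice (KC-H), all of the same strain. A sort by surface markers does not show a cell's origin, and how many animals gave each library is not stated in the sources used here. As both libraries of a group went into 1 list, there was no value per library, no replicate error and no test between groups. The intervals cover counting error only, and the depth per library was unknown. A missing peak means that no peak was called, not that the chromatin was closed. A different mix of cells and a different state of the same cells cannot be told apart in these sorted pools.

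Ly6C is a surface protein that is high on classical monocytes, which leave the blood through the chemokine receptor CCR2 and enter inflamed tissue. In the liver such cells can lose Ly6C and take on macrophage functions, among them the display of peptides on MHC class II molecules to helper T cells. The class II genes and their partners are controlled through the transactivator Ciita, whose complex assembles on promoter elements named the X and Y boxes. The partners are the invariant chain Cd74, the peptide loader H2-DM and its inhibitor H2-O.

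Promoters with a list-specific peak are shown first, since they place the difference at the start of single genes. The promoter window ran from 250 bases before to 50 bases after a start in the RefSeq table for GRCm38.p6. Among 17492 genes with a window, it held a list-specific peak centre of Ly6CHi-RM at 234 and of Ly6CLo-RM at 103. With both lists held to their 54621 best-scored peaks, 178 of the 234 genes still had one. The Ly6CLo-RM list is that long as deposited, so none of its 103 genes could be lost. In each direction, 11 genes were in the gene lists used here. The 250 bases before the start are printed for the 4 genes of those lists in each direction whose list-specific peak in the window scored highest. Capitals mark matches, on either strand, to the letters searched for PU.1/ETS (GAGGAAGT), AP-1 (TGANTCA), C/EBP (TTGCNNAA), NF-kB (GGGNNTTCC), IRF (GAAANNGAA), KLF/SP (GGGCGGGG), MiT/TFE (TCACGTGA), the Y box (ATTGG), the X box (AGCAACA), the X2 box (TGACGTCA) and STAT (TTCNNNGAA).
H2-DMb2: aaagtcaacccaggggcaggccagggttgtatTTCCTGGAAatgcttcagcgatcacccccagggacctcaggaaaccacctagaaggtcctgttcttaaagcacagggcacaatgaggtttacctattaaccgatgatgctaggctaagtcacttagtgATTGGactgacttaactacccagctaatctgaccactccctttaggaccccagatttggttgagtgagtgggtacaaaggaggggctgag
H2-Ob: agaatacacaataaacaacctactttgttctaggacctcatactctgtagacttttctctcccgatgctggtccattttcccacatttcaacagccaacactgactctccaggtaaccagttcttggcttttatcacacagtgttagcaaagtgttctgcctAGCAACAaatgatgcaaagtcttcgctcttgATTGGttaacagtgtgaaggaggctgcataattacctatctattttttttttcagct
Ccl22: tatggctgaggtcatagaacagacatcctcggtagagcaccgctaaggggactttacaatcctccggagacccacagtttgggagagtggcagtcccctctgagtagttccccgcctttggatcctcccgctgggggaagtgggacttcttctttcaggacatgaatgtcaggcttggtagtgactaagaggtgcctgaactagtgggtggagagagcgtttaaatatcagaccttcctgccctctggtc
C1qb: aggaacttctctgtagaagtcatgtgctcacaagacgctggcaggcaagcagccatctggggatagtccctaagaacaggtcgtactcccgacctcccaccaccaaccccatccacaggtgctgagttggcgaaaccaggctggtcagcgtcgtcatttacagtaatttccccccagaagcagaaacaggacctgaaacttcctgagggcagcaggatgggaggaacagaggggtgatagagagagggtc
Trem2: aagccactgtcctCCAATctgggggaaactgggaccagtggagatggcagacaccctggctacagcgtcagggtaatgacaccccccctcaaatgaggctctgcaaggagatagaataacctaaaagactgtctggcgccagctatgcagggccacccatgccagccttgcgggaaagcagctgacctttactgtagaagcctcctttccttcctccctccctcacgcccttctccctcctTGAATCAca
Gpnmb: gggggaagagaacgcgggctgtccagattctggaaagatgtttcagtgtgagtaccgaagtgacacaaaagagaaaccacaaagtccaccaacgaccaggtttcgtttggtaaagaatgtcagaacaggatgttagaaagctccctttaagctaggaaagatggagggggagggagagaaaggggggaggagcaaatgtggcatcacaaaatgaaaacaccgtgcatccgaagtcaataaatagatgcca
Plac8: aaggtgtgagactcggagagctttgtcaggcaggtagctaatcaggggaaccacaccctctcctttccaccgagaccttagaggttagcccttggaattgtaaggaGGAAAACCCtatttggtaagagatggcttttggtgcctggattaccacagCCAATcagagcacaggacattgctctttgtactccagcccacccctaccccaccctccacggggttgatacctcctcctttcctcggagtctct
S100a8: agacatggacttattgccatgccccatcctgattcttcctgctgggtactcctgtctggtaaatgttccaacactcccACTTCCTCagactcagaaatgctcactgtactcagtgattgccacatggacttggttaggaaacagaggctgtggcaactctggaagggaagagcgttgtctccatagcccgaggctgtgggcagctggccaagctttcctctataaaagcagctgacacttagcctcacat

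The first 4 sequences had a list-specific peak of Ly6CLo-RM and the others one of Ly6CHi-RM. H2-DMb2, which encodes a chain of the class II peptide loader, lies on the plus strand, and the printed bases are chr17:34144999-34145248. Its peak scored 81, was centred 110 bases before the start and was in none of the 4 other lists. The printed bases hold a Y box match first at base -90 and a STAT match at base -218. H2-Ob, a chain of the inhibitor of that loader, is shown at chr17:34238655-34238904. Its promoter peak scored 32 and was in all 4 other lists. The nearest Ly6CHi-RM peak centre was 1005 bp away, just over the 1000 bp limit. The X box match at base -88 precedes a Y box match at base -57 on the same strand. The X box letters were shortened after this promoter had been seen. The Ccl22 sequence, chr8:94745434-94745683, has no match to the letters searched. Ccl22 encodes a chemokine for CCR4-bearing T cells. Its promoter peak scored 76 and was in all 3 F4/80-high lists and not in blood. C1qb, a complement C1q chain gene on the minus strand at chr4:136886201-136886450, has no match either, and its peak scored 48.

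Trem2 encodes a lipid receptor of macrophages, and the printed bases are chr17:48346151-48346400. Its Ly6CHi-RM-specific peak scored 74, was centred 16 bases past the start and was in all 4 other lists. An AP-1 match begins at base -9. Gpnmb, a lysosomal glycoprotein gene, is shown at chr6:49036268-49036517, has no match to the letters searched, and its peak scored 38. Plac8, a gene high in classical monocytes, is on the minus strand at chr5:100572206-100572455. Its peak scored 36 and was in blood and KC-H. S100a8, which encodes a chain of calprotectin, is shown at chr3:90668821-90669070 with a PU.1/ETS match at base -172. Its peak scored 34 and was the only peak at the gene, with 1 in Ly6CHi-RM and 0 in Ly6CLo-RM. A match is a description of letters and not a bound site.

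Over all such promoters, the AP-1 letters were in 12.4% of the 241 windows with a Ly6CHi-RM-specific peak (8.86% to 17.2%) and in 4.46% of the 112 with a Ly6CLo-RM-specific peak (1.92% to 10.0%), and these intervals overlapped. All 21263 windows had 6.99%, and the 8442 with a shared peak 4.45%. The KLF/SP letters were in 23.2% of the Ly6CHi-RM windows (18.3% to 29.0%) and 41.1% of the Ly6CLo-RM windows (32.4% to 50.3%), against 23.6% of all windows and 38.1% of those with a shared peak, and here the intervals of the directions did not overlap. The STAT letters were in 6.22% and 13.4%, with 7.69% in all windows. X box letters were in 3.73% and 7.14%, with 4.68% in all windows, and for STAT and the X box the intervals overlapped. Mean GC content was 59.4% in the Ly6CHi-RM windows, 61.2% in the Ly6CLo-RM windows and 56.2% in all windows, and its part in these shares was not tested.

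List-specific peaks were the weaker peaks of each list. The score is the authors' own whole number per peak, and its median was 28.0 in the list-specific peaks of Ly6CHi-RM and 25.0 in those of Ly6CLo-RM, against 46.0 and 40.0 over the whole lists. In the best-scored 10% neither list had a list-specific peak. In the lowest-scored 10%, 54.4% of the Ly6CHi-RM peaks and 27.1% of the Ly6CLo-RM peaks were list-specific. The gap between the directions was smaller at equal length. With both lists held to their 54621 best-scored peaks, 7516 Ly6CHi-RM peaks (13.8%) and 6904 Ly6CLo-RM peaks (12.6%) were list-specific. Only the Ly6CHi-RM list was cut, so 1801 of the 6904 had a counterpart among its cut peaks. Counts over gene lists are therefore given as deposited and at equal length, and the latter can include such peaks. Just over the distance limit, at 1001 to 1100 bp, there were 223 Ly6CHi-RM and 144 Ly6CLo-RM peaks. Just within it, at 901 to 1000 bp, there were 216 and 152.

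**Figure D1:**
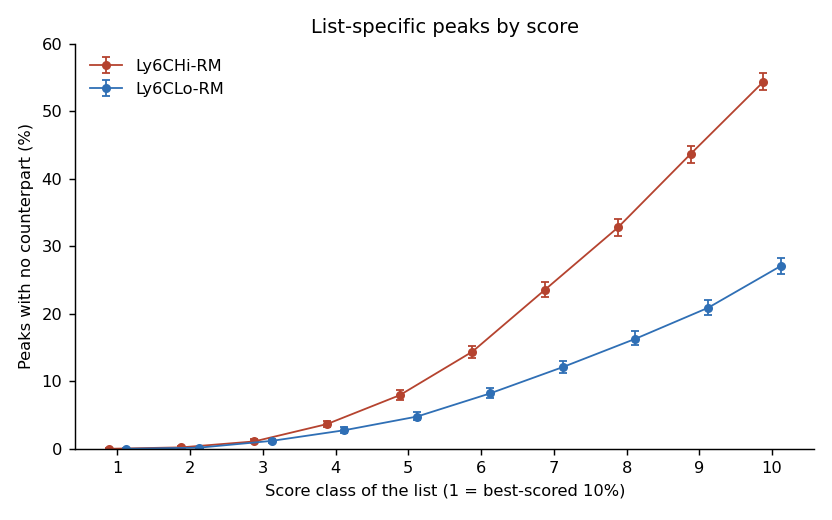
Share of list-specific peaks (y axis, percent) in 10 equal classes of the list by score (x axis, 1 is best scored) for Ly6CHi-RM and Ly6CLo-RM, with 95% Wilson intervals as bars. The share is 0 in the best class of both lists and reaches 54.4% and 27.1% in the lowest.

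Few list-specific peaks lay at gene starts. Within 1 kb of a start were 3.84% of those of Ly6CHi-RM and 4.08% of those of Ly6CLo-RM, against 26.6% of the Ly6CHi-RM peaks with a counterpart. Inside a protein-coding gene were 52.4% and 55.4%. Exons and introns were not used here.

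The directions differed in where else their peaks were found. Of the Ly6CHi-RM-specific peaks, 84.0% (83.3% to 84.6%) had a counterpart within 1000 bp in the blood monocyte list, close to the 86.8% of shared peaks with the same mix of scores. Of the Ly6CLo-RM-specific peaks, 24.2% (23.1% to 25.4%) did, against 92.1% of shared peaks. At equal length the shares of list-specific peaks were 88.8% and 35.4%, the latter including 1801 peaks whose Ly6CHi-RM counterpart was cut. By the rule, as deposited, shared peaks have a counterpart in Ly6CHi-RM and Ly6CLo-RM-specific peaks have none. Only 6.76% of all Ly6CHi-RM peaks lacked a counterpart in blood. The contrast with shared peaks on the Ly6CLo-RM side therefore partly follows from the rule. KC-H held 37.1% of the Ly6CHi-RM-specific and 27.0% of the Ly6CLo-RM-specific peaks, KC-N 27.1% and 24.3%, and KN-RM 12.1% and 11.3%.

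In none of the 4 other lists were 10.2% of the Ly6CHi-RM-specific peaks and 52.8% of the Ly6CLo-RM-specific peaks, the latter 2694 in number. Peaks in blood and in no F4/80-high list made up 47.1% and 13.5%. Peaks in 1 or more F4/80-high lists and not in blood made up 5.81% and 23.0%. The blood list was also the longest, with 69616 peaks.

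**Figure D2:**
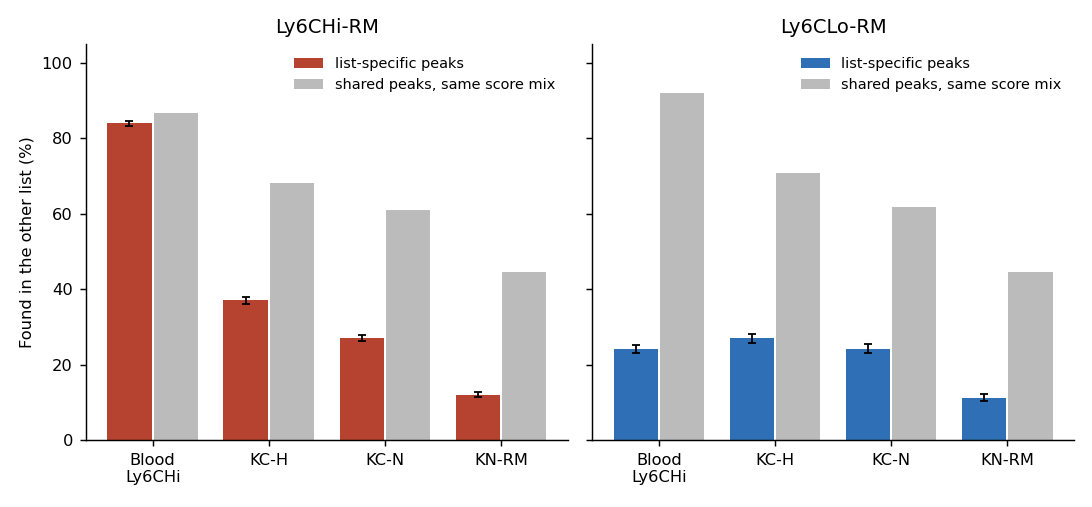
Percent of list-specific peaks (coloured bars, 95% Wilson intervals) and of shared peaks with the same mix of scores (grey bars) with a counterpart in each of the 4 other lists, for Ly6CHi-RM and Ly6CLo-RM. In the blood list the coloured bars stand at 84.0% and 24.2%.

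Peaks were given to the protein-coding gene that holds their centre, or else to the nearest within 100 kb. Of 14665 genes with a peak of either list, 40.6% had 1 or more Ly6CHi-RM-specific peaks and 21.5% had 1 or more Ly6CLo-RM-specific peaks. At least 3 more of Ly6CHi-RM were at 809 genes (5.52%), and at least 3 more of Ly6CLo-RM at 177 genes (1.21%). List-specific peaks of both directions were at 1512 genes.

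MHC class II and antigen presentation genes held more peaks in Ly6CLo-RM. The 15 listed genes had 143 peaks in Ly6CLo-RM, of which 33 (23.1%, 16.9% to 30.6%) were list-specific, and 99 in Ly6CHi-RM, of which 6 (6.06%, 2.81% to 12.6%) were. The shares over all peaks were 9.34% in Ly6CLo-RM and 18.2% in Ly6CHi-RM. The low Ly6CHi-RM share was not particular to these genes: housekeeping genes had 5.49% and MHC class I genes 5.88%. More were Ly6CLo-RM-specific at 8 of the 15 genes and more Ly6CHi-RM-specific at 2. At equal length the counts were 42 and 6. Of the 33, 3 were in blood, 15 in 1 or more F4/80-high lists and 17 in none of the 4 other lists. The excess was in weaker peaks: among the best-scored 50% of each list it fell from 27 peaks to 1.

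The classical class II genes, whose products form the peptide-presenting chains, carried most of it. H2-Eb1 had 20 Ly6CLo-RM peaks and 7 Ly6CHi-RM peaks, with 8 and 0 list-specific. H2-Aa had 17 and 5, with 7 and 0 list-specific. H2-Ab1 had 15 and 4, with 6 and 0 list-specific. None of these list-specific peaks was in the blood list, and the blood list had 4, 3 and 3 peaks at the 3 genes.

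Among the genes of the peptide loader and its inhibitor, H2-DMb2 had 6 Ly6CLo-RM peaks and 3 Ly6CHi-RM peaks, with 3 and 0 list-specific. H2-Oa had 8 and 5, with 2 and 0. H2-Ob had 5 in each, with 1 list-specific in each direction. H2-DMa had 7 and 8 and no list-specific peak, and H2-DMb1 had 3 and 4, with 1 specific to Ly6CHi-RM. Ciita, the class II transactivator, had 9 and 8, with 2 and 1 list-specific. Among the costimulatory genes, Cd86 had 16 Ly6CLo-RM peaks and 19 Ly6CHi-RM peaks, with 1 and 3 list-specific. Cd80 had 4 in each, with 1 and 0, and Cd40 had 5 and 6 with no list-specific peak. Ctss, a protease that cleaves the invariant chain, and Ifi30, a lysosomal thiol reductase, had none either.

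The 118 kb around H2-Ob, H2-Ab1, H2-Aa, H2-Eb1 and H2-Eb2, chr17:34228905-34346674, held 60 Ly6CLo-RM peaks, of which 23 (38.3%) were list-specific, and 23 Ly6CHi-RM peaks, of which 1 (4.35%) was. Joined within 25 kb, 22 of them formed the largest group of Ly6CLo-RM-specific peaks, at chr17:34268495-34331520. Of that group, KC-H had 11 peaks, KC-N 4, KN-RM 1 and the blood list 0. Their median score was 26.5 and the highest 41. Strong peaks of the region were in both lists.

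**Figure D3:**
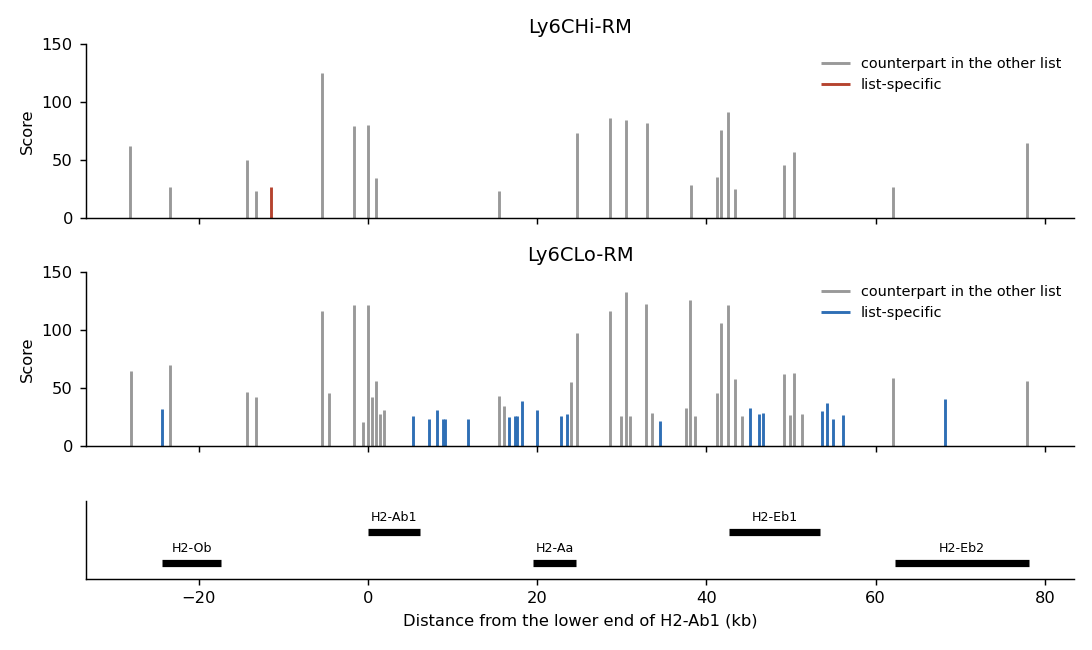
Peak scores (y axis, the authors' score) along the class II region by distance from the lower end of H2-Ab1 (x axis, kb) in Ly6CHi-RM (top) and Ly6CLo-RM (middle), with genes as black bars. List-specific peaks are coloured: 1 in Ly6CHi-RM and 23 in Ly6CLo-RM, all with scores below the strongest shared peaks.

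Around Cd74, which encodes the invariant chain that guards the class II groove, 50 kb on each side held 52 Ly6CLo-RM peaks with 16 list-specific and 26 Ly6CHi-RM peaks with 0. The gene itself had 19 and 12 peaks, with 2 and 0 list-specific. The neighbouring gene Tcof1, a nucleolar factor, was given 14 of the 16 by position. It had 27 and 8 peaks. None of the 16 was in the blood list.

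Genes high in classical monocytes showed the opposite. The 17 listed genes had 113 peaks in Ly6CHi-RM, 35 list-specific (31.0%, 23.2% to 40.0%), and 80 in Ly6CLo-RM, 5 list-specific (6.25%, 2.70% to 13.8%). More were Ly6CHi-RM-specific at 15 genes and more Ly6CLo-RM-specific at 0. At equal length the counts were 27 and 8. The shares over all peaks were 18.2% and 9.34%. Of the 35, 28 were in the blood list, which held 84.0% of all Ly6CHi-RM-specific peaks. Ccr2 had 6 peaks in Ly6CHi-RM and 2 in Ly6CLo-RM, with 4 and 0 list-specific. F13a1, a clotting factor chain, had 11 and 6, with 5 and 1, and Irf2bp2, a transcriptional corepressor, 38 and 36, with 5 and 0.

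The Ly6C genes separated less. Ly6c1 had 2 peaks in each list and no list-specific peak. Ly6c2 had 5 and 4, with 1 and 0 list-specific, and 1 and 1 at equal length. The best score at Ly6c1 was 67 in Ly6CHi-RM and 25 in Ly6CLo-RM, and at Ly6c2 82 and 85. The scale of the score is not stated, so scores cannot be compared between lists. Both genes lie in a family of near copies, so their reads may be shared. Both lists had peaks at Spi1, the gene of the myeloid factor PU.1, at Itgam, which encodes CD11b, and at Csf1r and Adgre1, the genes of the CSF-1 receptor and of F4/80.

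Receptors that sense microbes and chemoattractants had shares whose intervals held the background of 18.2% and 9.34%. Pattern recognition receptors had 24 of 116 (20.7%, 14.3% to 28.9%) in Ly6CHi-RM and 4 of 91 (4.40%, 1.72% to 10.8%) in Ly6CLo-RM, and 20 and 8 at equal length. Tlr4, the endotoxin receptor, had 11 and 5 peaks, with 6 and 0 list-specific. Cd14, its coreceptor, had 6 and 3, with 3 and 0. Chemokine and chemoattractant receptors had 32 of 139 (23.0%, 16.8% to 30.7%) and 9 of 108 (8.33%, 4.45% to 15.1%), and 24 and 12 at equal length. Cxcr4 had 24 and 18 peaks, with 5 and 0 list-specific. Ccr7, which guides dendritic cells to lymph nodes, went the other way, with 5 and 8 peaks and 2 and 5 list-specific.

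Lysosome genes had 20 of 121 list-specific peaks in Ly6CHi-RM (16.5%, near the background) and 1 of 96 in Ly6CLo-RM (1.04%, 0.184% to 5.67%, below it), and 13 and 1 at equal length. Tfec, a factor of the MiT/TFE family, had 9 and 4 peaks, with 5 and 0 list-specific, and its relative Mitf had 21 and 18, with 3 and 0. Glycolysis and hypoxia genes had 28 of 135 (20.7%) and 9 of 116 (7.76%), both near the background, and 19 and 12 at equal length. Slc2a1, the glucose transporter GLUT1, had 14 and 10 peaks, with 5 and 0 list-specific.

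Genes of Trem2-type lipid-associated macrophages had 23 of 123 (18.7%) and 9 of 112 (8.04%), each near its list's background, and 19 and 16 at equal length. Gpnmb had 8 Ly6CHi-RM peaks and 2 Ly6CLo-RM peaks, with 6 and 0 list-specific under both lengths. Fabp5, a fatty acid carrier, had 16 and 11, with 6 and 1. Cd9, a tetraspanin gene, had 16 and 19, with 1 and 4. Kupffer cell identity genes had 15 of 53 (28.3%) and 4 of 43 (9.30%), but 6 and 6 at equal length.

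NF-kB and inflammatory cytokine genes had 25 of 190 list-specific peaks in Ly6CLo-RM (13.2%, 9.07% to 18.7%), an interval that held the background of 9.34%. In Ly6CHi-RM they had 15 of 173 (8.67%, 5.32% to 13.8%), below the background of 18.2%. At equal length the counts were 31 and 10. Among the best-scored 50% the excess of 10 turned to -1. Tnfaip3, an inhibitor of NF-kB signalling, had 33 Ly6CLo-RM peaks and 22 Ly6CHi-RM peaks, with 7 and 0 list-specific. Nfkbia, the inhibitor IkB-alpha, had 22 and 14, with 4 and 0. Nfkb1 had 22 and 20, with 6 and 3. Il1b went the other way, with 7 and 10 peaks and 1 and 4 list-specific.

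Dendritic cell genes had 24 of 95 list-specific peaks in Ly6CLo-RM (25.3%, 17.6% to 34.8%, above the background of 9.34%). In Ly6CHi-RM they had 18 of 88 (20.5%, 13.3% to 30.0%, which held the background of 18.2%). At equal length the counts were 29 and 12. Kit, the stem cell factor receptor, had 9 Ly6CLo-RM peaks and 2 Ly6CHi-RM peaks, with 7 and 0 list-specific, none of them in another list. Zbtb46, a factor of classical dendritic cells, had 11 and 7, with 3 and 1. Irf8 went the other way, with 12 and 20 and 1 and 7. Flt3 had 11 peaks and 2 list-specific in each list. Cd209a had no peak in either. Plasmacytoid dendritic cell genes had 13 of 68 (19.1%, 11.5% to 30.0%, above the background) and 10 of 65 (15.4%, 8.58% to 26.1%, holding it). At equal length they had 17 and 8. Whether dendritic cells in the sort had a part in the antigen presentation counts was not tested.

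Markers of other cells were mixed. Neutrophil genes had 11 of 31 list-specific peaks in Ly6CHi-RM (35.5%, 21.1% to 53.1%, above the background of 18.2%). In Ly6CLo-RM they had 1 of 21 (4.76%, 0.846% to 22.7%, which held the background of 9.34%). At equal length the counts were 10 and 4. Ly6g and Elane had no peak in either list. Csf3r, the G-CSF receptor gene, had 7 peaks in Ly6CHi-RM and 4 in Ly6CLo-RM, with 3 and 0 list-specific, and Mpo 2 and 1. Of the eosinophil markers, Epx had none, Siglecf had 4 and 5 and Ccr3 3 and 3. Of the T and NK cell markers, Bcl11b had none, Cd3e had 1 and 0, Ncr1 0 and 1 and Eomes 2 and 1. The B cell factor genes Pax5 and Ebf1 had 1 and 2, and 1 and 0. Of the hepatocyte markers, Alb had none, Apoa1 had 1 and 0 and Hnf4a 8 and 6. Of the endothelial and stellate cell markers, Tek and Lrat had none, Kdr had 5 and 7 and Pdgfrb 7 and 5. Their part in the results was not tested. Of the Kupffer cell markers, Timd4 had 0 peaks in Ly6CHi-RM and 1 in Ly6CLo-RM, Clec4f 1 and 0 and Marco 1 and 1. Cd5l had 4 and 1, with 3 and 0 list-specific, and Vsig4 4 and 1, with 3 and 0 as deposited and at equal length. Housekeeping genes had 5 of 91 (5.49%) and 6 of 99 (6.06%), and 3 and 7 at equal length.

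Growth factor and matrix genes had 20 of 98 list-specific peaks in Ly6CHi-RM (20.4%) and 10 of 84 in Ly6CLo-RM (11.9%), and 16 and 11 at equal length. Igf1, the insulin-like growth factor gene, had 9 and 4 peaks, with 5 and 0 list-specific. All 5 were in blood, against 84.0% of all Ly6CHi-RM-specific peaks. TGF-beta, BMP and Notch genes had 22 of 215 (10.2%, 6.85% to 15.0%) and 21 of 213 (9.86%), and 15 and 22 at equal length. Rbpj, the DNA-binding partner of Notch, had 18 and 23 peaks, with 0 and 5 list-specific, and Skil, a SMAD corepressor gene, 10 and 15, with 0 and 5. Complement and dead cell uptake genes had 16 of 57 (28.1%) and 6 of 46, and 11 and 8 at equal length, and Mertk, a receptor for dying cells, had 7 and 3 peaks, with 4 and 0. Genes of Ly6C-low patrolling monocytes had 14 of 151 (9.27%, below the background) and 15 of 153 (9.80%), and 8 and 17 at equal length. Nr4a1, the factor those monocytes depend on, had 16 peaks in each list and none list-specific.

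**Figure D4:**
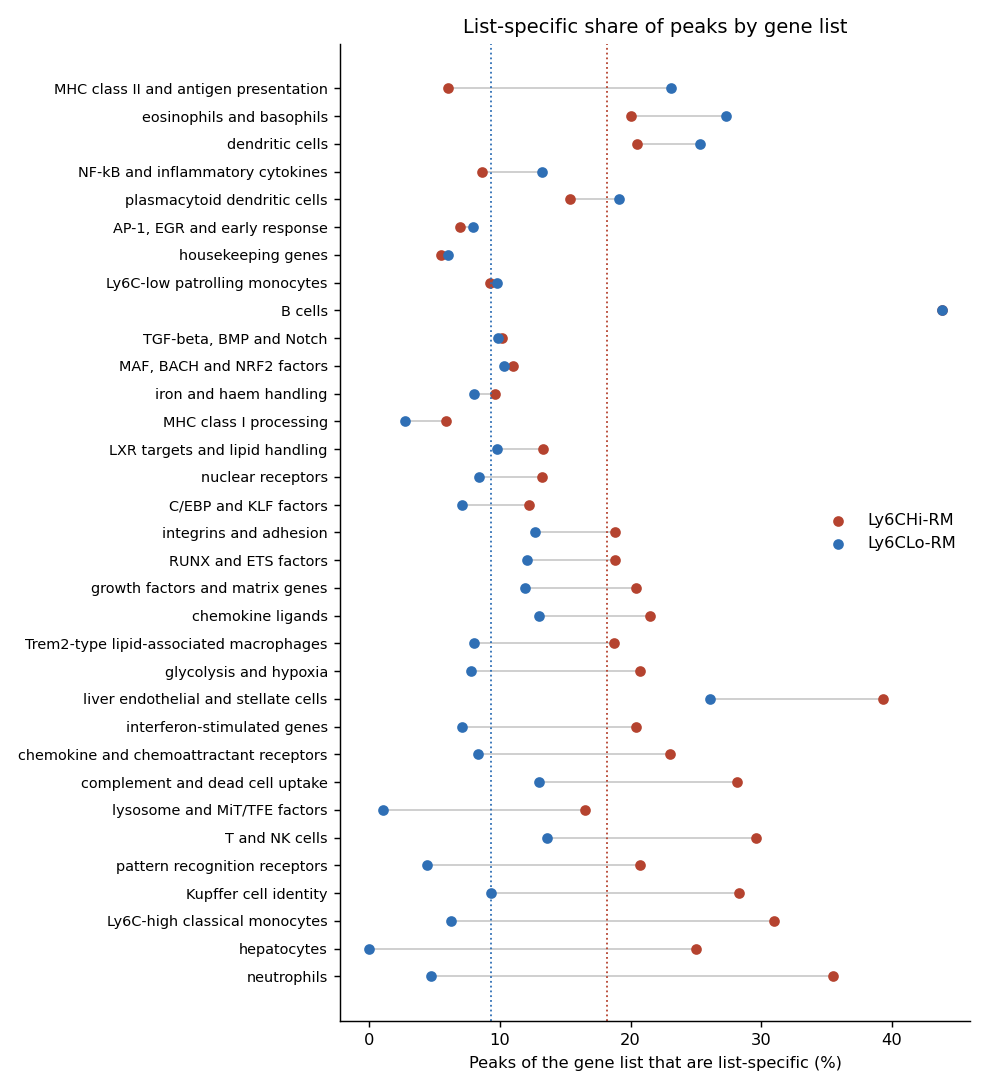
Percent of the peaks of each gene list that are list-specific (x axis) in Ly6CHi-RM and Ly6CLo-RM, 1 row per gene list, as deposited. Dotted lines mark the shares over all peaks, 18.2% and 9.34%, and antigen presentation stands at 6.06% and 23.1%. The B cell points coincide at 43.8%.

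Single genes with many list-specific peaks included transcription factors. Runx1, a factor of blood cell development, had 41 peaks in Ly6CHi-RM and 25 in Ly6CLo-RM, with 13 and 2 list-specific, and all 13 were in blood. The strongest of them, at chr16:92612582-92612782 inside the gene, scored 89. Blood held 84.0% of all Ly6CHi-RM-specific and 24.2% of all Ly6CLo-RM-specific peaks. Runx3 had 20 and 26, with 0 and 4. Etv6, an ETS repressor, had 34 and 48, with 2 and 14 list-specific, 4 of the 14 in blood. Foxp1, a forkhead factor of monocyte differentiation, had 11 in each direction. Bach2, a repressor of lymphoid and myeloid genes, had 4 and 8.

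Of the other genes with the most Ly6CHi-RM-specific peaks, Cnih3 is an AMPA receptor auxiliary gene. It had 14 peaks in Ly6CHi-RM and 4 in Ly6CLo-RM, with 10 and 0 list-specific. Of the 10, 9 were in blood, against 84.0% of all Ly6CHi-RM-specific peaks. Jazf1 had 12 and 1 list-specific peaks, Nsmce2 12 and 2, Wwox 11 and 1, Smyd3 11 and 0, Asap1 11 and 4, Map2k6 9 and 0, Thada 9 and 0, Arsb 9 and 3 and Nrp1 9 and 2. Gene length was not corrected for. At equal length Runx1 had 10 and 3 list-specific peaks, Foxp1 6 and 13, Jazf1 7 and 1, Wwox 7 and 1, Smyd3 5 and 0 and Asap1 6 and 4. The 67 genes followed across settings were those with the most list-specific peaks, others with a large difference, and the antigen presentation genes. Of these, 46 kept their difference within 1.5 times at equal length by score, 21 moved further and none changed sign. As most were chosen for a large difference in these same lists, a kept sign was favoured by the choice.

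On the Ly6CLo-RM side, Rarb, a retinoic acid receptor gene, had 13 Ly6CLo-RM peaks and 3 Ly6CHi-RM peaks, with 9 and 0 list-specific. Of the 9, 5 were in blood and 0 in an F4/80-high list. Zfp366, a dendritic cell zinc finger gene, had 10 and 1, with 9 and 0. Rgs1, a brake on chemokine receptor signalling, had 27 and 14, with 9 and 0, and 6 of the 9 were in an F4/80-high list and 0 in blood. Mical3 had 9 and 3, of which 7 formed a group at chr6:121053918-121071088 with a median score of 65.0. Given the nearest gene end in place of the containing gene, its excess of 6 turned to -1. Ttll5 had 8 and 0, Akap13 8 and 3 and Rap1b 8 and 5. Pdgfb, a growth factor for stellate cells, had 10 and 2 peaks, with 6 and 0 list-specific, all 6 in an F4/80-high list.

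**Figure D5:**
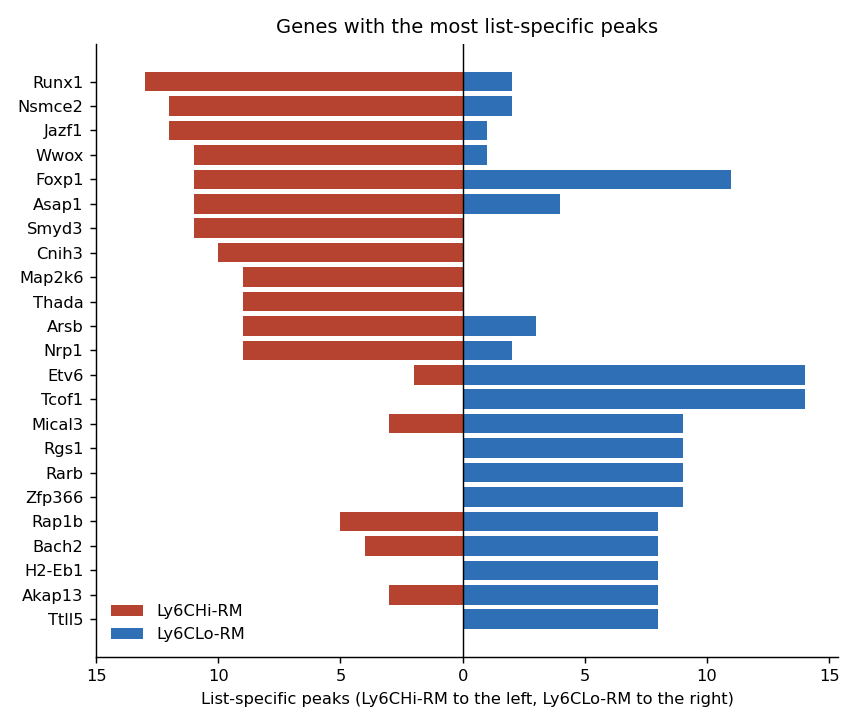
Number of list-specific peaks (x axis) of Ly6CHi-RM (left) and Ly6CLo-RM (right) at the 12 genes with the most in each direction, Foxp1 being in both sets. Runx1 has 13 and 2, Etv6 2 and 14, and Foxp1 11 and 11.

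Of the 5 list-specific peaks of highest score in each direction, none was near a class II gene. Those of Ly6CHi-RM scored from 96 to 110, led by chr16:85145922-85146122 inside App, the amyloid precursor gene, and all 5 were in blood. Those of Ly6CLo-RM scored from 83 to 94, led by chr4:47746616-47746816 with no gene within 100 kb. Of these 5, only the one inside Rarb, at chr14:16548320-16548520 with a score of 85, was in blood. The ones inside Slc17a8 and near Ephb3 were in all 3 F4/80-high lists. The Ly6CLo-RM-specific peak at the promoter of H2-DMb2, a class II loader gene, scored 81, just below these 5. In the best-scored 25% of each list, blood held 100% of the Ly6CHi-RM-specific and 15.2% of the Ly6CLo-RM-specific peaks.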

How the data were processed

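ATAC-seq peak lists of mouse myeloid cells were used as deposited, 1 per group of 2 libraries, in mm10 coordinates (GRCm38). Bowtie2, HOMER and DESeq2 are named, without roles or versions, per the submitters' processing notes, and those sources give no read filters. The signal column holds the authors' normalized tag count per peak and the score column the authors' whole-number score, both deposited without a header and used only to rank and describe peaks within a list.

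Presence was judged by peak centres within 1000 bp, as deposited and with both lists held to 54621 peaks by score. The gene table was RefSeq GRCm38.p6, with 21900 protein-coding genes, of which 17492 had a promoter window. It gives no exons. The 33 gene lists held 458 symbols, 2 of them not in the table. The genes named were the 12 with the most list-specific peaks per direction, every antigen presentation gene, up to 4 of each other list by difference, and fixed markers; also 5 peaks and 5 groups per direction. Only some of them are printed, and results of some genes are not reported here. The members and lists were chosen with earlier results of these data known. Other letters searched in promoters, on both strands, were ETS (CCGGAAGT), long RUNX (TGTGGTTT), short RUNX (TGTGGT), KLF (CCACACCC), EGR (GCGTGGGCG), MAF (TGCTGAC), USF (CACGTG), nuclear receptor (AGGTCA), NUR77 (AAAGGTCA), CTCF (AGGGGGC), RBPJ (GTGGGAA), SMAD (GTCTAGAC) and BCL6 (TTCCTNGAA). Long RUNX holds short RUNX, MiT/TFE holds USF, NUR77 holds the nuclear receptor letters, and BCL6 is a case of STAT. Functions were tested on simulated lists. The software was matplotlib 3.10.9, scipy 1.17.1, pandas 2.3.3, numpy 2.4.6 and Python 3.11.15.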

Additional observations from a re-analysis of the deposited data

How the results depend on the processing

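No paired analysis was possible because each group had 1 list made from both libraries, and for the same reason no replicate could be left out. The number of Ly6CLo-RM-specific peaks rose from 5103 to 7659 when absence meant no overlap of 1 bp. Among the best-scored 50% there were 793 Ly6CHi-RM-specific and 484 Ly6CLo-RM-specific peaks, and among the best-scored 25% 36 and 33. The antigen presentation excess of 27 peaks became 41 with no centre within 500 bp, 44 with no overlap, and 1 among the best-scored 50% and 1 among the best-scored 25%. The share of Ly6CHi-RM-specific peaks in blood was 85.5% at 500 bp, 84.9% at 2000 bp, 87.1% by overlap, 88.8% at equal length by score, 89.2% by tag count, 98.0% in the best 50% and 100% in the best 25%. For Ly6CLo-RM-specific peaks it was 35.9% at 500 bp, 46.5% by overlap, 35.4% and 33.6% at equal length, 15.7% in the best 50% and 15.2% in the best 25%.

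The differences of gene lists and genes (Ly6CLo-RM-specific minus Ly6CHi-RM-specific peaks) were recomputed 1089 times. Of these values, 685 kept their sign within 1.5 times, 363 moved and 41 changed sign, at 17 gene lists and 2 genes. Most of the genes, unlike the gene lists, had been chosen for a large difference. At equal length by score the sign changed for C/EBP and KLF factors (4), LXR targets (3), MAF and BACH factors (6), MHC class I (2), T and NK cells (2), TGF-beta and Notch (7), hepatocytes (1), integrins (6), iron (3), endothelial and stellate cells (3) and nuclear receptors (5). By tag count it changed for C/EBP and KLF (5), Dusp1 (2), LXR (2), MAF and BACH (10), MHC class I (2), TGF-beta and Notch (10), integrins (2), iron (2), endothelial and stellate cells (4) and nuclear receptors (3). In the best 50% it changed for patrolling monocytes (-1), MAF and BACH (1), NF-kB (-1), TGF-beta and Notch (4), chemokine ligands (1), complement (2), integrins (2) and endothelial and stellate cells (2). In the best 25% it changed for chemokine ligands (1), complement (1) and integrins (1). At 2000 bp it changed for AP-1 and early response (-5), patrolling monocytes (-2) and housekeeping genes (-1), and at 500 bp for MAF and BACH (1) and MHC class I (1). By overlap it changed for MHC class I (2), with genes within 20 kb for TGF-beta and Notch (1), within 1000 kb for patrolling monocytes (-1), and by nearest gene end for Mical3 (-1). Fewer peaks are left in the best-scored settings. At equal length only the Ly6CHi-RM list was cut. By score, its list-specific peaks fell from 11176 to 7516, while those of Ly6CLo-RM rose from 5103 to 6904. All sign changes at equal length were towards Ly6CLo-RM. The cause of the sign changes was otherwise not tested. Depth per library was unknown, so a weak peak missing from one list was not detectable there and cannot be called absent.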

Other observations

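Joined within 25 kb, the list-specific peaks of Ly6CHi-RM formed 7528 groups, of which 5215 were single peaks and 321 held 4 or more. Those of Ly6CLo-RM formed 3902 groups, of which 3120 were single and 91 held 4 or more. The largest Ly6CHi-RM group, at chr12:105476564-105585173 near the bradykinin receptor gene Bdkrb2, held 10 peaks, 9 of them in blood and 0 in any F4/80-high list. A group at Itgb3, the integrin beta-3 gene, and Myl4 held 8, 7 of them in blood. Blood held 84.0% of all Ly6CHi-RM-specific peaks. Among the Ly6CLo-RM groups, one at Tnfsf4, the OX40 ligand gene for T cell costimulation, at chr1:161354439-161379197, held 6 peaks, 2 in KC-N and 0 in blood. One on the unplaced sequence JH584304 held 9, all 9 in each of the 3 F4/80-high lists and 0 in blood.

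By chromosome, the share of list-specific peaks on X was 19.5% in Ly6CHi-RM (17.4% to 21.8%) and 6.98% in Ly6CLo-RM (5.59% to 8.69%). On chromosome 12 it was 17.3% and 11.4%. The complement genes C1qa and C1qb had 0 peaks in Ly6CHi-RM and 1 each in Ly6CLo-RM, and the C1qb promoter peak, with a score of 48, was in all 3 F4/80-high lists and not in blood.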
